A study of Mus musculus with 13 samples.

Results

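The 10 genes described here encode the vascular endothelial growth factor (VEGF) ligands Vegfa, Vegfb and Vegfc, the VEGF receptors Kdr, Flt1 and Flt4, the angiopoietins Angpt1 and Angpt2, and the TIE receptors Tek and Tie1. They were matched by mouse symbol and make up 10 of the 53379 genes of a bulk RNA-seq count matrix. The matrix was made from CD45- cells of the thymus of wild-type C57BL/6 mice, all 2 months old. This nonhematopoietic fraction holds thymic epithelial cells (TECs), fibroblasts (FBs) and endothelial cells (ECs). There were 4 libraries at steady state (untreated in the labels, named PBS controls in the matrix) and 9 after a sublethal dose of total body irradiation (TBI), 3 for each of days 1, 4 and 7. The steady-state libraries are called here by the day and replicate of their PBS column. Nothing in the labels ties a library to an animal, so the tests measure the spread between libraries, which may be partly technical.

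VEGF-A acts through KDR (VEGFR2), the main signaling receptor of ECs, while FLT1 (VEGFR1) binds VEGF-A and VEGF-B tightly and limits how much of it reaches KDR. VEGF-C signals through FLT4 (VEGFR3), best known from lymphatic vessels. Angiopoietin-1, made by mesenchymal cells around vessels, activates TEK (TIE2) and keeps vessels quiescent, angiopoietin-2 is released by activated ECs and can oppose it, and TIE1 is a partner of TEK without a strong ligand of its own. In a sorted stromal mixture such as this one, fewer cells of a type and less RNA per cell cannot be told apart.

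The regions just upstream of the genes are shown for the members whose values the results turn on, and for Tek as a contrast. RefSeq promoter windows (GRCm38.p6) were found for 8 of the 10 members, and not for Angpt1 and Angpt2, which are named only. Each printed sequence is the 250 bases before the RefSeq start, 5′ to 3′ on the strand of the gene. Capitals mark each GC box, GGGCGG or its reverse complement CCGCCC, the element read by SP1-type factors. The windows are chr17:46032378-46032627 for Vegfa, chr19:6987652-6987901 for Vegfb, chr5:75978456-75978705 for Kdr, chr5:147726012-147726261 for Flt1 (all minus strand) and chr4:94739039-94739288 for Tek (plus strand).
Vegfa: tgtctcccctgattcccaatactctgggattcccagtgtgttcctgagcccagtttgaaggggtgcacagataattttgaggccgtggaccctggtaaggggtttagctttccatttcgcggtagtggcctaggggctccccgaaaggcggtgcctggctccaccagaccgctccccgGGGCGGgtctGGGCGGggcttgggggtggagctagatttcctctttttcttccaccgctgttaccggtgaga
Vegfb: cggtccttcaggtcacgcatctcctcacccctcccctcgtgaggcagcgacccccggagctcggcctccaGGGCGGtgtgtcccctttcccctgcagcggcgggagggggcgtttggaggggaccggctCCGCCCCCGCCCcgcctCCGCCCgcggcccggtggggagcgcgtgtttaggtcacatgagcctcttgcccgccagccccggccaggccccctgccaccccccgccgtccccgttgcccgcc
Kdr: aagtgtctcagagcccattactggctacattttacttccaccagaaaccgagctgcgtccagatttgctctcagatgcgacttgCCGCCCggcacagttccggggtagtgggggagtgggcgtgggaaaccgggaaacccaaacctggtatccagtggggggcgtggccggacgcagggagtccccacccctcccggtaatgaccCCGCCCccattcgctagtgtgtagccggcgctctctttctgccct
Flt1: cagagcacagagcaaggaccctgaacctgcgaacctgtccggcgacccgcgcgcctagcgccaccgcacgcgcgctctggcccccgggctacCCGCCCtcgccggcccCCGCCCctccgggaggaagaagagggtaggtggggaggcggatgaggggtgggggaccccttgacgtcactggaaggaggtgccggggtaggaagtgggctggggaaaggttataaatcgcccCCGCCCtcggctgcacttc
Tek: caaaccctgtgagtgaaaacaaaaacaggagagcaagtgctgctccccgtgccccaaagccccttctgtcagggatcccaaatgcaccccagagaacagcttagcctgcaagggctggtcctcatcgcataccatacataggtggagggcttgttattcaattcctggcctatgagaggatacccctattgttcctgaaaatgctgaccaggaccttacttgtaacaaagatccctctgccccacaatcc

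The window of Vegfa held 2 GC boxes and that of Vegfb held 4, at a GC content of 59.2% and 76.4%. Kdr had 2 and Flt1 had 3, at 61.6% and 70.4% GC. Tek held none, at 51.2% GC, close to the median of 52.0% over the promoters of 27025 genes. Among all of these promoters 32.9% held a GC box, on either strand, in a window of the same length. Vegfc held 2, so the 5 VEGF ligand and receptor windows that lie outside the annotated gene (Kdr overlaps it by 3 bases) all held at least 1. The windows of Flt4 and Tie1 lie mostly inside the gene as GENCODE annotates it and were left out. A match of letters is a description of the window and not a binding site.

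All 10 members passed the filter on low counts, and between 40 (Vegfb) and 20354 (Kdr) reads were counted for a member in a library. Total counts ran from 15721866 to 52056896 per library. Of 12 endothelial markers none was at 0 in any library, and their summed level was 1164 to 1445 CPM (counts scaled to the normalized library size) before TBI. It was 1604 to 1754 CPM on day 1, 1379 to 1712 on day 4 and 1134 to 1491 on day 7. Day 1 therefore did not overlap steady state in the summed endothelial level. By edgeR, though, 0 of the 12 markers passed the test in that comparison, where 2.35% of all genes did. At an unadjusted p under 0.05 (edgeR) it was 3 of the 12, beside 17.2% of all genes. DESeq2 called 3 of the 12, beside 7.00% of all genes. The endothelial score, the mean log2 level of the same 12 genes, did overlap, with 6.24 to 6.43 on day 1 and 6.06 to 6.54 before TBI. Of the 12 markers, 9 had a positive log2 fold change at day 1 against steady state and 3 a negative one (edgeR). Pecam1 and Cdh5, which define the ECs, had log2 fold changes of 0.31 and −0.10 (adjusted p = 0.565 and 0.850, edgeR). Eng had 0.74 (adjusted p = 0.0529, edgeR), and the tight junction gene Cldn5 had −1.41 (adjusted p = 0.0867, edgeR). The summed level of 10 thymocyte genes, which a CD45- sort should remove, was 226 to 724 CPM before TBI. It was 107 to 140 CPM on day 1, 19.7 to 32.5 on day 4 and 200 to 4572 on day 7. Other lists moved as well. The summed level of 3 erythroid genes was 1557 to 3571 CPM before TBI, 289 to 972 on day 1, 3.48 to 6.26 on day 4 and 279 to 758 on day 7. That of 8 epithelial genes was 988 to 3533, 1351 to 2763, 2870 to 4673 and 792 to 1485 CPM, in the same order.

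A single day 1 library, replicate 1, and 2 day 4 libraries, replicates 2 and 3, stood apart from the rest. Among 11459 genes with a mean of at least 5 CPM, 7.98% were at least 4-fold under their own median in the day 1 library, and 2.11% and 1.95% in the day 4 libraries. No other library exceeded 0.716%. For 19.1% of these genes, the same 3 libraries were the lowest of the 13, and Vegfa and Flt1 were among them. Fold changes without these libraries are also given below for each member.

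To ask where the pathway sits in thymic stroma before damage, levels were compared per length at steady state, as RPKM, which divides CPM by the exonic length in kilobases. Kdr, Tie1 and Tek led with 36.9 ± 13.7, 29.8 ± 6.68 and 29.5 ± 6.60 RPKM (mean ± SD, n = 4). Over all 13 libraries each of these receptors lay at or above the 90.2nd percentile of the 19984 genes tested. Vegfa followed with 9.08 ± 1.95 RPKM, and its highest library (11.5) was below the lowest library of Tek (20.6). Below Vegfa came Flt1 (6.41 ± 3.03), Vegfc (5.39 ± 0.616), Angpt1 (4.43 ± 0.694), Vegfb (3.62 ± 0.799), Angpt2 (3.62 ± 0.910) and Flt4 (2.47 ± 0.681). The gap between Tek and Vegfa was the only step in this order where the libraries of neighbours did not overlap. For the other neighbours, the 3 leading receptors among them, overlap does not show equal levels. Both genes of a pair were measured in the same libraries and were not compared within them.

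**Figure D1:**
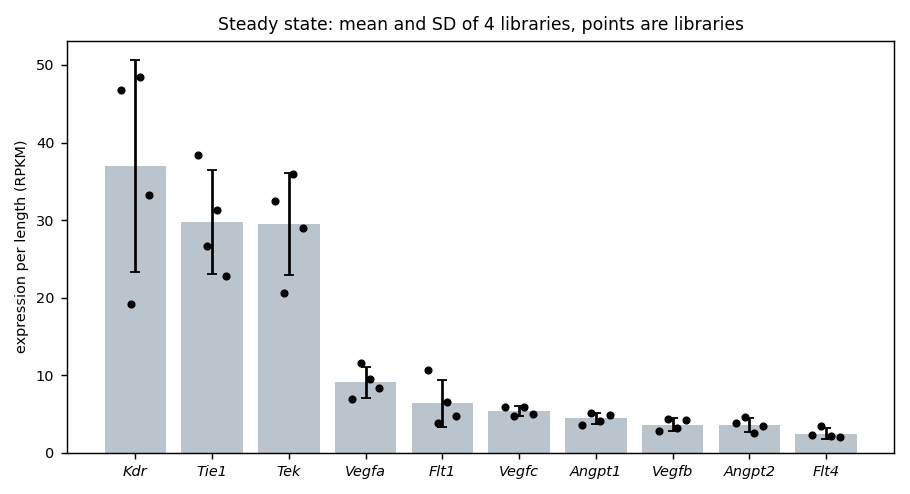
Expression per length (RPKM, y axis) of the 10 genes at steady state, in order of their mean. Bars are means, error bars are SDs and points are the 4 libraries. Kdr, Tie1 and Tek have means of 29.5 RPKM or more and the other 7 genes have means of 9.08 RPKM or less.

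The comparison with steady state asked which of these genes responded to TBI. By edgeR's quasi-likelihood test, 0 of 10 members passed an adjusted p of 0.05 at day 1, where 2.35% of all genes tested did. The count was also 0 of 10 at day 4, against 0.29% of all genes, and 0 of 10 at day 7, against 0.005%. Between the days after TBI, 0 of 10 passed from day 1 to day 4 (1.43% of all genes), 0 of 10 from day 1 to day 7 (8.13%) and 0 of 10 from day 4 to day 7 (3.9%). At an unadjusted p under 0.05, 2 members passed at day 1 against steady state (Kdr and Angpt2), 0 at day 4 and 0 at day 7, beside 17.2%, 13.02% and 13.5% of all genes tested. From day 1 to day 4 it was 1 (Kdr, against 13.7% of all genes), from day 1 to day 7 it was 2 (Kdr and Vegfc, against 23.9%) and from day 4 to day 7 it was 1 (Tie1, against 18.7%). DESeq2, the other tool, called 1 member at day 1 against steady state (Kdr), where it called 7.00% of all genes. It called 1 from day 1 to day 7 (Kdr, against 14.7%), 1 from day 4 to day 7 (Tie1, against 9.60%) and 0 in each of the other 3 comparisons. None of the counts of members given so far exceeded the share of all genes by as much as 1 gene. Where libraries of different conditions are said below not to overlap, the share of all genes that do so was not counted. Such a separation is a description of the libraries only. With the mean log2 level of the thymocyte genes as a covariate in edgeR, no member passed in any comparison. That level itself varied with condition, from 4.21 to 5.76 before TBI, 3.10 to 3.48 on day 1 and 0.76 to 1.38 on day 4. This fit therefore cannot separate the covariate from the condition. The median log2 fold change of the members was −0.13 at day 1, −0.13 at day 4 and −0.03 at day 7 against steady state, beside −0.10, −0.13 and 0.00 over all genes tested.

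**Figure D2:**
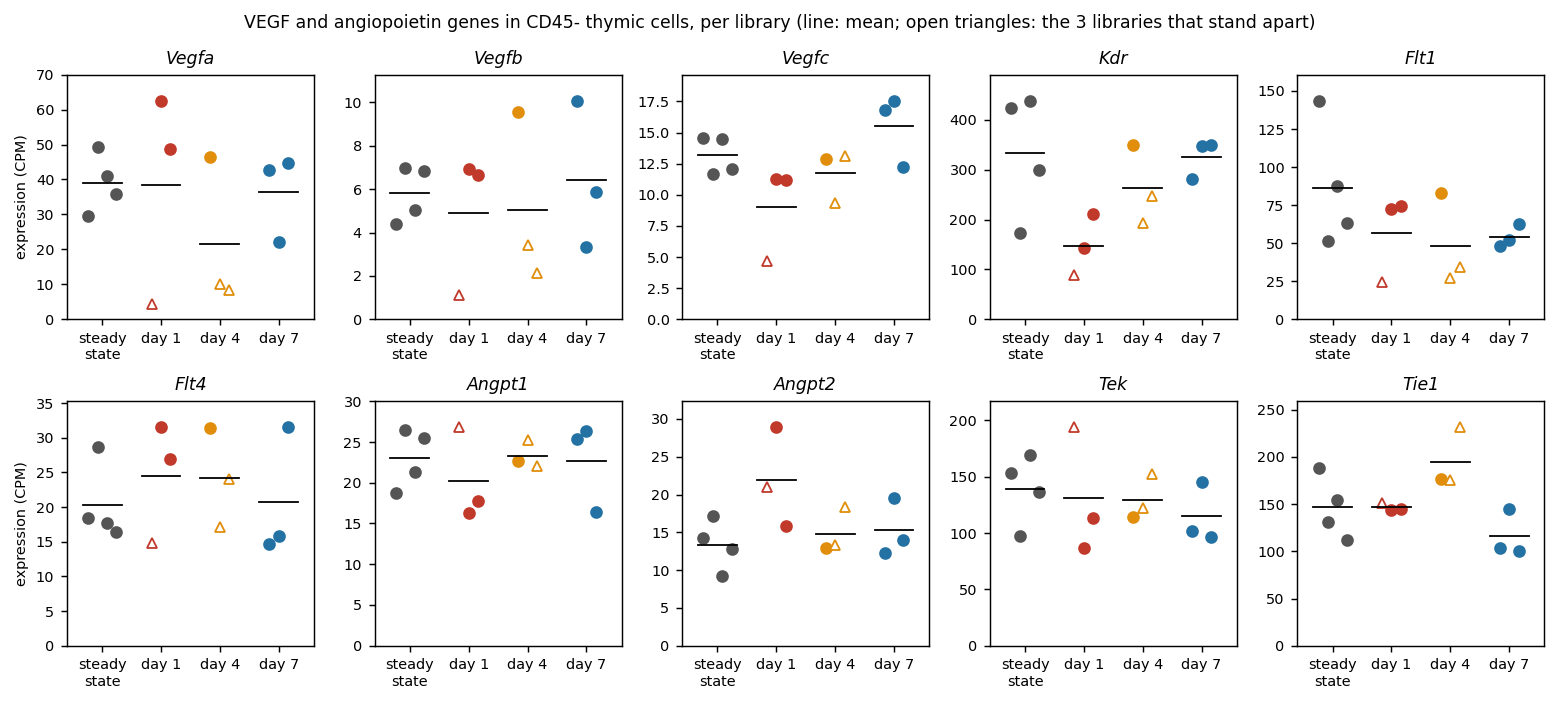
Expression (CPM, y axis, each panel from 0 with its own scale) of the 10 genes in every library, by condition (x axis). Points are libraries, lines are means, and open triangles mark the 3 libraries that stood apart (day 1 replicate 1, day 4 replicates 2 and 3). For Vegfa these triangles lie at 10.1 CPM or less, and all other libraries lie at 22.2 CPM or more.

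Vegfa (ENSMUSG00000023951, minus strand of chromosome 17, 46016993 to 46032369) had 29.6, 49.4, 40.9 and 35.7 CPM in PBS day 1 replicate 2, PBS day 4 replicate 2 and PBS day 7 replicates 1 and 2. Replicates 1 to 3 had 4.44, 62.5 and 48.6 CPM at day 1, 46.3, 10.1 and 8.44 CPM at day 4, and 42.6, 22.2 and 44.6 CPM at day 7. The gene was thus low in the 3 libraries that stood apart and within or above the steady-state range in the other libraries of days 1 and 4, and the groups overlapped. Its log2 fold change was −0.02 at day 1 (95% interval −1.55 to 1.52), −0.86 at day 4 (−2.42 to 0.71) and −0.09 at day 7 (−1.63 to 1.44), with adjusted p of 0.995, 0.596 and 0.990 (edgeR). Without the 3 libraries the value turned positive at day 1 (0.53, adjusted p = 0.604) and at day 4 (0.25, adjusted p = 1), where a single library was left. Each matrix column name ends in a tag of unstated meaning, and by the start of the tag the libraries fall into 3 families. Vegfa at day 1 was 1.58 times the steady-state level in 1 family (2 libraries on each side) and 0.124 times in another (1 on each side). These data therefore set only wide limits on Vegfa after TBI.

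The genes whose levels over the 13 libraries were most like those of Vegfa were Get4, Tmem201 and Gnai2, each with a Pearson's r of 0.99 of log2 CPM. None of them is a VEGF pathway gene. Gnai2, which encodes a G protein subunit, had 129, 192 and 211 CPM in the 3 libraries that stood apart and 429 to 774 CPM in the other 10. The likeness of Vegfa to these genes thus includes the contrast between those 3 libraries and the rest.

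Vegfb (ENSMUSG00000024962, minus strand of chromosome 19, 6982473 to 6987651), the ligand that binds FLT1 but not KDR, had 4.41, 6.98, 5.06 and 6.83 CPM in the steady-state libraries, in the same order. It had 1.13, 6.92 and 6.66 CPM at day 1, 9.55, 3.44 and 2.13 at day 4 and 10.1, 3.34 and 5.86 at day 7. Its levels followed those of Vegfa (r = 0.92 over the 13 libraries, which include the 3 that stood apart), and every group overlapped every other. The log2 fold changes against steady state were −0.25, −0.22 and 0.14, with adjusted p from 0.871 to 0.979 (edgeR). They were 0.24, 0.72 and 0.15 without the 3 libraries, so the sign turned at days 1 and 4. When each library's trend with GC content was removed, its lowest library, replicate 1 of day 1, went from 1.13 to 2.67 CPM, while Vegfa, at 4.44 CPM there, came to 4.42 CPM.

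Vegfc (ENSMUSG00000031520, plus strand of chromosome 8, 54077606 to 54187096), the ligand of FLT4, varied least among the VEGF ligands at steady state relative to its mean, with 14.5, 11.7, 14.5 and 12.1 CPM. At day 1 all 3 libraries (4.72, 11.2 and 11.2 CPM) were below the steady-state range. At day 4 it had 12.8, 9.38 and 13.1 CPM, and at day 7 16.8, 17.6 and 12.2 CPM, with all 3 libraries of day 7 above those of day 1. Its log2 fold change was −0.55 at day 1 against steady state (95% interval −1.20 to 0.10, adjusted p = 0.376) and 0.78 from day 1 to day 7 (0.09 to 1.47, adjusted p = 0.152, edgeR). Without the 3 libraries these values were −0.22 (adjusted p = 0.795) and 0.45 (adjusted p = 0.362).

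Kdr (ENSMUSG00000062960, minus strand of chromosome 5, 75932827 to 75978458) had the value nearest to a call at day 1. It had 423, 173, 438 and 300 CPM at steady state and 89.3, 142 and 211 CPM in replicates 1 to 3 of day 1. It then had 349, 194 and 247 CPM at day 4 and 280, 348 and 349 CPM at day 7. Day 1 was the lowest group, overlapping steady state through PBS day 4 replicate 2 alone, and all 3 libraries of day 7 were above all 3 of day 1. Its mean went from 334 ± 123 CPM before TBI to 147 ± 61.2 on day 1, 263 ± 79.0 on day 4 and 326 ± 39.4 on day 7 (SD, n = 4 and 3). The log2 fold change at day 1 was −1.18 (95% interval −1.96 to −0.40, unadjusted p = 0.00622, adjusted p = 0.121, edgeR), which did not pass the test over all genes. From day 1 to day 7 it was 1.14 (0.32 to 1.96, adjusted p = 0.0821) and from day 1 to day 4 it was 0.84 (0.02 to 1.65, adjusted p = 0.353, edgeR). At day 7 against steady state it was −0.03 (−0.79 to 0.72, adjusted p = 0.994, edgeR).

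The call on Kdr depended on the fit. With DESeq2 the log2 fold change at day 1 was −1.12 (adjusted p = 0.0329), and with the endothelial score as a covariate in edgeR it was −1.35 (adjusted p = 0.0390). With the family of the column tag as a covariate it was −1.35 (adjusted p = 0.0105), and without PBS day 4 replicate 2 it was −1.39 (adjusted p = 0.0344, edgeR). Without the 3 libraries that stood apart it was −0.89 (adjusted p = 0.448), and over all 19 alternatives its adjusted p ran from 0.0105 to 0.448 with a negative value in each. The value from day 1 to day 7 passed the test in 3 of 17 alternatives, with adjusted p from 0.00970 to 0.609 (edgeR or DESeq2). Within the tag families the level of Kdr at day 1 was 0.410 times (2 libraries on each side) and 0.297 times (1 on each side) that of steady state. The third family held no library of day 1.

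The genes most like Kdr over the 13 libraries were Bicral, Thsd7a and Dnajc27, with a Pearson's r of 0.92 to 0.94. Among the members, Vegfc was the most like it, with an r of 0.81, and Angpt2 the least like it, with an r of −0.67.

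Flt1 (ENSMUSG00000029648, minus strand of chromosome 5, 147561604 to 147726011), the decoy receptor, had 144, 51.6, 87.6 and 63.3 CPM at steady state and 24.6, 72.2 and 74.3 CPM at day 1. It had 82.9, 26.9 and 34.2 CPM at day 4 and 48.3, 52.0 and 62.5 CPM at day 7. Its 3 lowest libraries were those that stood apart, and every group overlapped steady state. The log2 fold changes of −0.60 at day 1, −0.85 at day 4 and −0.67 at day 7 had intervals that all held 0, the narrowest reaching from −1.61 to 0.41, with adjusted p from 0.445 to 0.642 (edgeR). Without those libraries they were −0.21, −0.04 and −0.66, so only the value of day 7, whose own libraries all remained, stayed near its size.

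The ratio of Flt1 to Kdr, 2 receptors that share VEGF-A, was compared per library as a log2 ratio of CPM, which is not corrected for length. It was −1.55, −1.74, −2.32 and −2.24 at steady state and −1.84, −0.97 and −1.50 at day 1. It was −2.07, −2.82 and −2.84 at day 4 and −2.52, −2.73 and −2.47 at day 7, where all 3 libraries were below every steady-state library. The mean differed from steady state by 0.52 at day 1, −0.61 at day 4 and −0.61 at day 7 (exact permutation test, two-sided, p = 0.171, 0.171 and 0.0857). The smallest p that 4 against 3 libraries allow in the exact permutation test is 0.0286. After Benjamini-Hochberg adjustment over the 6 ratio tests the exact permutation p was 0.257 in each of the 3. A single test at the smallest p would not pass this adjustment. The differences without the 3 libraries were 0.72, −0.11 and −0.61, so that of day 4, with 1 library left, rested on replicates 2 and 3.

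Flt4 (ENSMUSG00000020357, plus strand of chromosome 11, 49609263 to 49652739), the receptor of VEGF-C, was the lowest member per length at steady state. Before TBI it had 18.4, 28.6, 17.8 and 16.4 CPM. After TBI it had 14.8, 31.5 and 26.9 CPM on day 1, 31.4, 17.1 and 24.1 on day 4, and 14.6, 15.9 and 31.5 on day 7. All groups overlapped, each with at least 1 library near 30 CPM. The log2 fold changes against steady state were 0.27, 0.25 and 0.02, and their 95% intervals reached from −0.73 to 1.02 at most (adjusted p from 0.744 to 0.994, edgeR). The values were 0.54, 0.63 and 0.02 without the 3 libraries (adjusted p from 0.630 to 1, edgeR). The lymphatic markers Prox1, Lyve1 and Mmrn1 summed to no more than 14.3 CPM in any library.

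Angpt2 (ENSMUSG00000031465, minus strand of chromosome 8, 18690263 to 18741562) had 14.3, 17.2, 9.17 and 12.7 CPM at steady state. At day 1 it had 21.0, 28.9 and 15.8 CPM, of which 2 libraries were above the steady-state range and 1 was inside it. It had 12.9, 13.3 and 18.3 CPM at day 4 and 12.3, 19.5 and 14.0 CPM at day 7. Its log2 fold change at day 1 was 0.71 (95% interval 0.10 to 1.33, unadjusted p = 0.0261, adjusted p = 0.223, edgeR), and 0.15 and 0.19 at days 4 and 7 (adjusted p = 0.827 and 0.903, edgeR). Over its 19 alternatives the day 1 value ran from 0.46 to 0.90 and passed the test in none, with adjusted p from 0.115 to 0.499. In the fit without the 3 libraries the values were 0.76 at day 1 (adjusted p = 0.469, edgeR), −0.05 at day 4 and 0.19 at day 7. Within tag families the level at day 1 was 1.91 times (2 libraries on each side) and 1.65 times (1 on each side) that of steady state.

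Angpt1 (ENSMUSG00000022309, minus strand of chromosome 15, 42424723 to 42676977), the TEK agonist, stayed within 16.3 to 26.8 CPM over all 13 libraries. The steady-state libraries had 18.8, 26.5, 21.4 and 25.5 CPM. Those of day 1 had 26.8, 16.3 and 17.7 CPM, those of day 4 22.7, 25.2 and 22.1 CPM, and those of day 7 25.4, 26.4 and 16.4 CPM. Its log2 fold changes against steady state were −0.18 (95% interval −0.71 to 0.35), 0.02 (−0.51 to 0.55) and −0.02 (−0.55 to 0.51), with adjusted p from 0.747 to 0.994 (edgeR). Replicate 1 of day 1 held its highest level, and without the 3 libraries the values were −0.42, −0.02 and −0.03 (adjusted p from 0.628 to 1, edgeR). Of its exonic bases 14.2% overlap a gene on the other strand, Gm17473, and the counting does not use strand, so reads of both genes cannot be told apart there. The genes most like Angpt1 over the 13 libraries were Zfp120, Zfp715 and 2410004I01Rik, with a Pearson's r of 0.90 to 0.92.

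The log2 ratio of Angpt2 to Angpt1, which share the receptor TEK, was −0.38, −0.61, −1.18 and −0.98 at steady state. It was −0.35, 0.81 and −0.16 at day 1, where all 3 libraries lay above all 4 of steady state, although replicate 1 exceeded the highest of them by little. It was −0.79, −0.90 and −0.26 at day 4 and −1.01, −0.43 and −0.22 at day 7. The mean was −0.79 ± 0.358 at steady state (n = 4) and 0.10 ± 0.623 at day 1 (n = 3), a difference of 0.89. By the exact permutation test, two-sided, this gave p = 0.0571 and an adjusted p of 0.257 over the 6 tests. At days 4 and 7 the differences were 0.13 and 0.23 (exact permutation test, adjusted p = 0.629 and 0.549). The differences were 1.11, −0.01 and 0.23 without the 3 libraries.

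**Figure D3:**
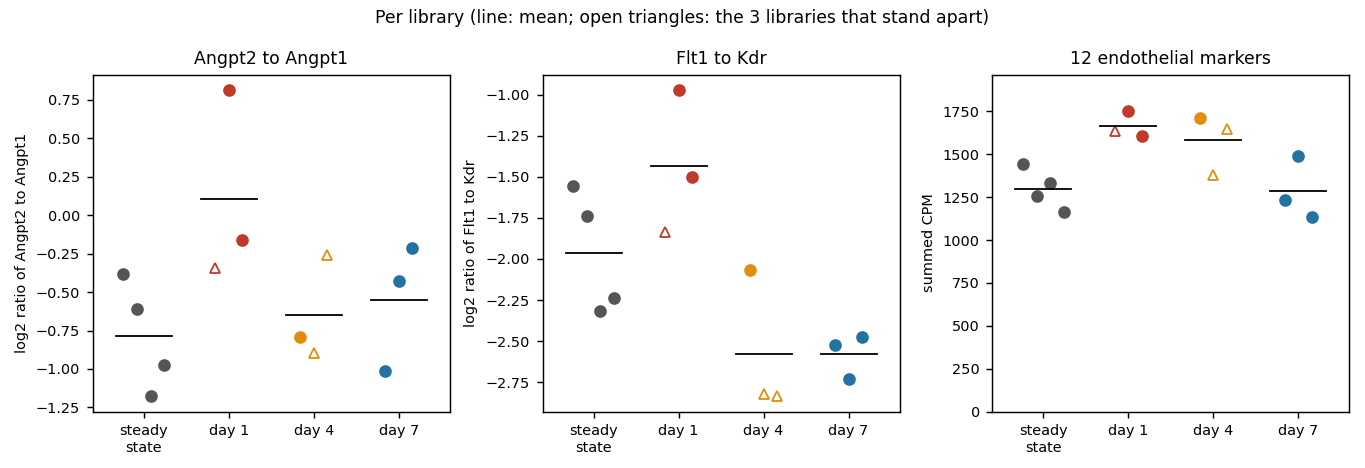
Log2 ratio of Angpt2 to Angpt1 (left), log2 ratio of Flt1 to Kdr (middle) and summed CPM of 12 endothelial markers (right) per library, by condition (x axis). Points are libraries, lines are means and open triangles mark the libraries that stood apart. All 3 libraries of day 1 lie above steady state on the left, and all 3 of day 7 lie below it in the middle.

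Tek (ENSMUSG00000006386, plus strand of chromosome 4, 94739289 to 94874976), the angiopoietin receptor, had 153, 97.0, 170 and 136 CPM at steady state. It had 194, 86.7 and 114 CPM at day 1, 114, 123 and 152 at day 4 and 102, 146 and 96.7 at day 7, and all groups overlapped. Its highest library, replicate 1 of day 1, was the lowest for Vegfa, Vegfb, Vegfc, Kdr and Flt1. The log2 fold changes against steady state were −0.08 (95% interval −0.70 to 0.54), −0.10 (−0.72 to 0.52) and −0.28 (−0.90 to 0.35), with adjusted p from 0.821 to 0.915 (edgeR). The first rested on that library: without the 3 libraries the values were −0.45, −0.28 and −0.28 (adjusted p from 0.604 to 1, edgeR). The genes most like it were Pbld1, Tas2r117 and Il31ra, with a Pearson's r of 0.89 to 0.91 over the 13 libraries.

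Tie1 (ENSMUSG00000033191, minus strand of chromosome 4, 118471191 to 118490061), the partner of TEK, had 189, 131, 154 and 112 CPM at steady state and, relative to the mean, the narrowest group of any member at day 1, with 152, 144 and 144 CPM. At day 4 it had 176, 175 and 232 CPM, above every library of day 1. At day 7 it had 103, 145 and 100 CPM, below every library of day 4. The share of all genes that separate in this way was not counted. Its log2 fold change was 0.41 at day 4 against steady state (95% interval −0.06 to 0.88, adjusted p = 0.432) and −0.74 from day 4 to day 7 (−1.25 to −0.24, unadjusted p = 0.00754, adjusted p = 0.0997, edgeR). The second value passed the test with DESeq2 (−0.81, adjusted p = 0.0155) and in none of the other 16 alternatives, over which and DESeq2 its adjusted p ran from 0.0155 to 0.693. Against steady state the values without the 3 libraries were 0.00 at day 1, 0.28 at day 4 and −0.33 at day 7, and from day 4 to day 7 it was −0.61 (adjusted p = 0.693, edgeR). Its levels followed the endothelial score more closely than those of any other member (r = 0.79 over the 13 libraries). Relative to that score, the log2 level of Tie1 was 0.92 ± 0.120 before TBI, then 0.85 ± 0.144 on day 1, 1.17 ± 0.231 on day 4 and 0.63 ± 0.0939 on day 7.

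**Figure D4:**
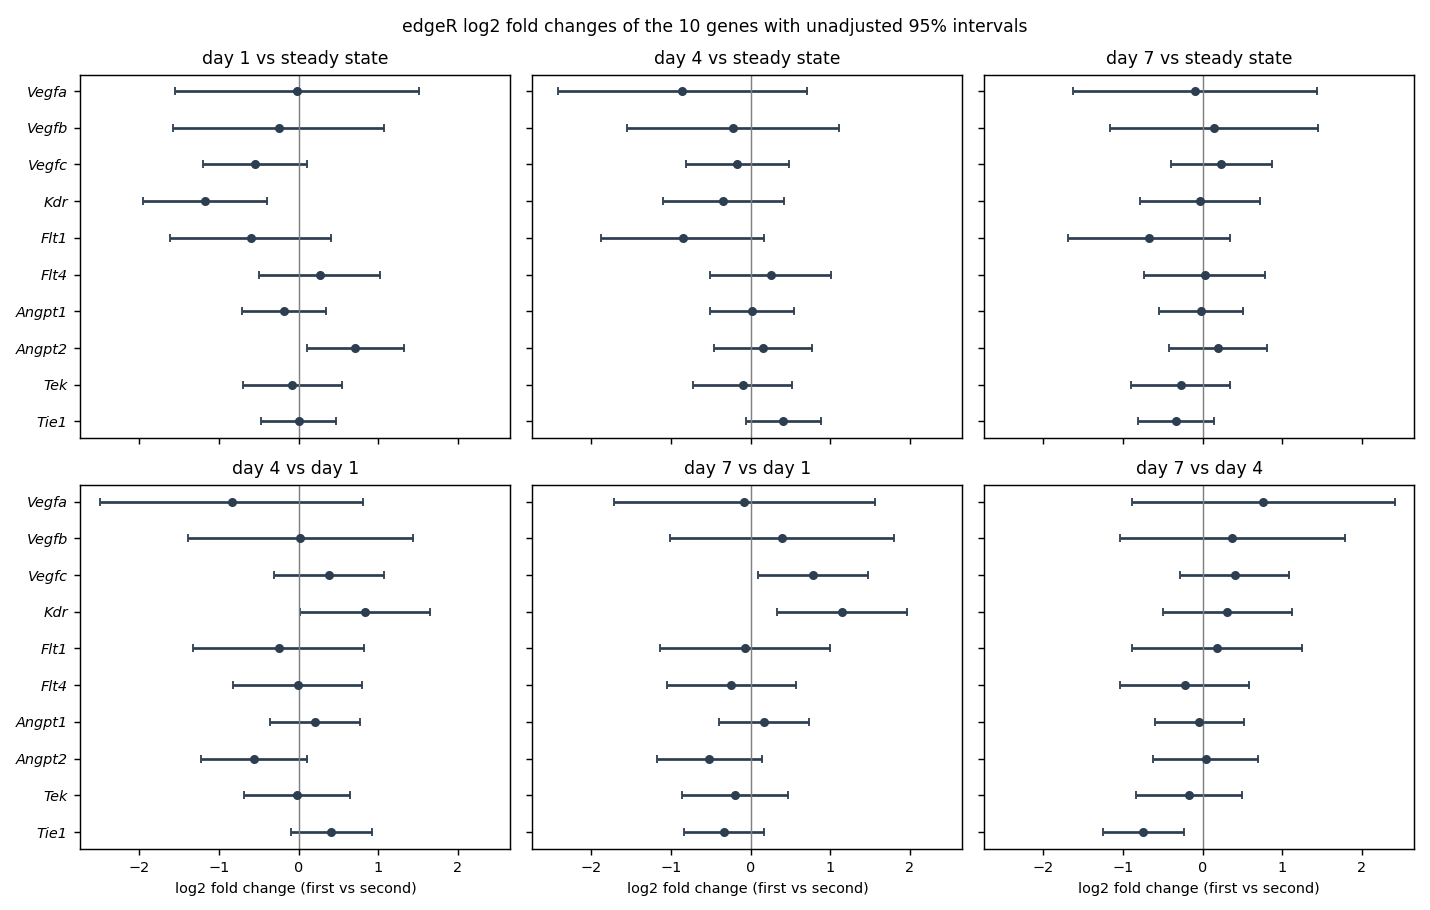
Log2 fold changes (x axis, first condition against second) of the 10 genes in the 6 comparisons, from edgeR. Points are estimates and bars are 95% intervals without adjustment for the number of genes. The bars of Kdr and Angpt2 miss 0 at day 1 against steady state, as do those of Kdr from day 1 to days 4 and 7, of Vegfc from day 1 to day 7 and of Tie1 from day 4 to day 7.

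The width of these intervals differed by gene. At day 1 against steady state the interval was 0.946 wide on the log2 scale for Tie1 and 3.06 for Vegfa. It lay between −1 and 1 for 3 of the 10 members at day 1, for 5 at day 4 and for 7 at day 7. A rise and a fall of 1 on the log2 scale thus both lay outside the interval for those genes alone.

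The other genes of the pathway were read as a list of 15, which holds further ligands (Pgf, Vegfd, Apln, Angpt4), co-receptors (Nrp1, Nrp2), a phosphatase of TEK (Ptprb), signal carriers (Plcg1, Shb, Nos3, Foxo1) and tip cell genes (Esm1, Dll4), with Aplnr and Svep1. By edgeR 0 of 15 passed the test in any of the 6 comparisons, and at an unadjusted p under 0.05 there were 3 at day 1, 2 at day 4 and 0 at day 7 against steady state, and 1 or 2 in each comparison between days. The shares of all genes at this p, given above, apply here as well. DESeq2 called 1 of the 15 in 4 of the comparisons and 0 in the other two, where it called 3.23% to 14.7% of all genes. Their median log2 fold changes against steady state were −0.12, −0.13 and 0.05, close to those of all genes tested. Of 12 hypoxia response genes, a program known to raise Vegfa, 0 passed in any comparison by edgeR, and 3, 1 and 0 did at an unadjusted p under 0.05 against steady state (17.2%, 13.02% and 13.5% of all genes), with 4 from day 1 to day 4, 3 from day 1 to day 7 and 0 from day 4 to day 7, beside 13.7%, 23.9% and 18.7% of all genes. DESeq2 called 2 of the 12 at day 1 against steady state (7.00% of all genes), 1 from day 1 to day 4 (4.80%) and 0 in the other 4 comparisons. Their medians were −0.01, 0.08 and −0.13.

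Of 5 markers of venous ECs 2, Selp and Ackr1, passed the test at day 1 against steady state, where 2.35% of all genes tested did. Both genes take part in leukocyte entry and had log2 fold changes of 2.04 and 2.07 (adjusted p = 0.0136 and 0.0222, edgeR). Of 8 pericyte and smooth muscle genes 1 passed there, Pdgfrb, the receptor of pericytes for platelet-derived growth factor, with 1.68 (adjusted p = 0.00547, edgeR). The list did not move together, since 5 of the 8 values were positive and those of Abcc9 (−0.57), Rgs5 (−0.57) and Myl9 (−0.42) were negative. Summed over the 8 genes, the level was 2092 to 2904 CPM on day 1 and 1015 to 2009 CPM before TBI, without overlap. Of 4 megakaryocyte and platelet genes 1 also passed at day 1 against steady state. Their summed level was 18.8 to 27.9 CPM on day 1 and 8.03 to 16.3 CPM before TBI. Which cells gave the calls at day 1 was not tested. From day 1 to day 7 the log2 fold changes of Selp, Ackr1 and Pdgfrb were −1.97, −1.98 and −1.83 (adjusted p = 0.0171, 0.0240 and 0.00588, edgeR). Abcc9 rose by 1.18 from day 1 to day 4 and Kcnj8 fell by 1.13 from day 4 to day 7 (adjusted p = 0.0109 and 0.0434, edgeR), both channel subunits of pericytes. Eng, an endothelial co-receptor for TGF-β ligands, fell by 0.70 on the log2 scale from day 1 to day 7 (adjusted p = 0.0450, edgeR), where 8.13% of all genes passed. By edgeR this was the only call among the 12 endothelial markers in any comparison. DESeq2 called 3 of them at day 1 against steady state (7.00% of all genes) and 1 from day 1 to day 4 (4.80%). It called 3 from day 1 to day 7 (14.7%) and 1 from day 4 to day 7 (9.60%).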

How the data were processed

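Bulk RNA-seq of 13 libraries of CD45- thymic cells was analysed; the study's single-cell, spatial and imaging data were not analysed here. The authors trimmed reads with Trimmomatic (0.38 in the submitters' processing notes), aligned them to GRCm38.p5 with STAR (2.7.0e) and counted them per gene with featureCounts (1.6.3, default settings, hence without strand). The deposited values are whole-number counts without normalization. The matrix also holds the exonic length of each gene, which served the RPKM. Conditions came from the sample labels. The 4 PBS columns do not carry the labels' replicate numbers and were used as a group.

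Comparisons used edgeR 4.0.16 (R 4.3.3), with all 13 libraries in 1 fit by condition, TMM normalization, filterByExpr() by condition (19984 genes kept) and the quasi-likelihood F-test. Genes with a Benjamini-Hochberg adjusted p of 0.05 or less over all genes tested were called. Intervals are 95% intervals of the log2 fold change. They cover the spread between libraries, with counting error in it. CPM and RPKM use the TMM-normalized library size. Ratios of 2 members were taken as differences of log2(CPM + 0.5) and compared with exact permutation tests, 6 in all. The score of a gene list is its mean log2(CPM + 0.5). Correlations are Pearson's r of log2(CPM + 0.5) over the 13 libraries, given as descriptions with no test, since the libraries share conditions and depth. Symbols, coordinates and GC content came from GENCODE M21, and promoter windows from RefSeq. The promoters compared are 1 window per gene. The steps were tested on simulated data.

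The alternatives were DESeq2 1.42.0, RLE normalization, no filter, at least 10 counts in every library, only the conditions compared, the replicate block, PBS controls of the same day, the tag family, thymocyte score or endothelial score as a covariate, a pseudocount of 0.1, and each library left out in turn. Removal of the GC trend (lowess span 0.3) and a fit without 3 libraries were added after seeing the data. The members and gene lists were chosen with earlier results of these data known. All 10 members are named, other pathway, hypoxia response and endothelial genes where at least 1 comparison called them (else as counts), Pecam1 and Cdh5, and the 3 genes most like Vegfa, Kdr, Angpt1 and Tek. Cldn5 and the venous and pericyte genes were named after their values were seen.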

Additional observations from a re-analysis of the deposited data

Results flagged for a closer look

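Among 10 members and 2 ratios at steady state, 1 had a library far from the other 3. Flt4 had 28.6 CPM in PBS day 4 replicate 2, and 16.4 to 18.4 CPM in the other steady-state libraries. Its Dixon's ratio was 0.837, past the 95% critical value for 4 samples. Chance flags about 1 in 20 such groups, or 0.6 of the 12 examined. The same library was the lowest of the 4 for Kdr, at 173 CPM, and Tek, at 97.0 CPM.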

How the results depend on the processing

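Of 1080 refits of a member in a comparison over 25 alternatives, 1070 kept the side of the threshold, 9 newly passed it and 1, Flt1 from day 1 to day 7, passed it with the sign turned (1.00 with the tag family as a covariate, adjusted p = 0.0496, against −0.07). In 143 refits the sign of an uncalled value changed, the largest of these being Vegfa at day 4 (−0.86). The count of called members went from 0 to 1 at day 1 against steady state with DESeq2, with the endothelial score and without PBS day 4 replicate 2 (Kdr each time), and to 2 with the tag family (Kdr and Flt1). From day 1 to day 7 it went to 1 with DESeq2 and with the endothelial score (Kdr, 1.11 and 1.44), and to 2 with the tag family (Kdr, 1.86, and Flt1). From day 4 to day 7 it went to 1 with DESeq2 (Tie1). Among all genes, the same fits called 1399, 790, 797 and 1066 at day 1 against steady state, in the order named. They called 2940, 2122 and 1416 from day 1 to day 7, and DESeq2 called 1919 from day 4 to day 7. The main fit tested 19984 genes. RLE moved the median of all genes by at most 0.08 and no member's call. The causes of these changes were not tested. No ratio passed the test under any alternative, and leaving out each library gave 0.53 to 1.11 for Angpt2 to Angpt1 and 0.29 to 0.72 for Flt1 to Kdr at day 1.

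The count of all genes called moved more. In the order day 1, day 4 and day 7 against steady state, then day 1 to 4, 1 to 7 and 4 to 7, it was 469, 58, 1, 285, 1625 and 779. With DESeq2 it was 1399, 645, 1081, 960, 2940 and 1919. Whether the replicate numbers pair the libraries was not settled. Same-numbered libraries of different days after TBI deviated with a mean correlation of −0.25 (−0.84 to 0.27, 9 pairs). For other pairs the mean was 0.10. Libraries that stood apart weigh on these values: day 1 replicate 1 had −0.84 with day 4 replicate 1, but 0.71 and 0.66 with replicates 2 and 3. The correlations therefore cannot exclude a pairing. With the replicate block the count of all genes called was 209, 27, 0, 147, 655 and 95, and no member was called. Without the 3 libraries that stood apart it was 182, 10, 2, 7, 176 and 8. Leaving out 1 library at a time it ran from 252 to 797, 19 to 97, 0 to 622, 87 to 287, 472 to 1953 and 15 to 1507. With PBS controls of the same day it was 47, 15 and 0 against steady state, where days 1 and 4 have 1 such library each, assumed to vary like the other groups. The tag family moved it to 1066, 33, 0 and, from day 1 to 4, 163. The endothelial score moved it to 790 at day 1 and 184 at day 4. With only the conditions compared it was 228, 146 and 0 against steady state and 394 from day 4 to 7. No filter gave 250 at day 4, 627 at day 7 and 1265 from day 4 to 7, and 10 counts in every library gave 20, 0 and 355 there, and 880 from day 1 to 7. The thymocyte score gave 194 at day 7, 340 from day 1 to 7 and 16 from day 4 to 7, and removal of the GC trend 91 at day 4. Without division by length Flt4 ranked 7th instead of 10th at steady state, and Vegfc 9th instead of 6th.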
